A study of Homo sapiens with 15 samples.

Results

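The 10 genes described here encode 6 subunits of the AMP-activated protein kinase (AMPK), its upstream kinase STK11, and 3 regulators of mitochondrial biogenesis. They were chosen by name, not by their values, and each was found through the RefSeq transcript that the array files give for a probe. All 10 were measured, by 12 probes, among 16582 named genes that were tested. All 12 probes were well above background on all 15 arrays, so none of the 10 genes entered the comparison only through a group in which it was high.

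AMPK is a trimer of a catalytic alpha, a scaffolding beta and a nucleotide-binding gamma subunit. It is switched on when a fall in cellular energy raises AMP and ADP and when STK11, also called LKB1, phosphorylates the alpha subunit; inhibitors of mitochondrial complex I, biguanides among them, are known to activate it in this way. Active AMPK turns off ATP-consuming synthesis and, through the coactivator PPARGC1A and the transcription factors NRF1 and TFAM, is linked to the making of new mitochondria. That activation is a change of the protein, which an mRNA array does not measure.

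The arrays were of A2058, a human malignant melanoma cell line, and held RNA taken after 8 hours of treatment. NP at 3 µM was compared with its solvent DMSO, and metformin (MET) at 5 mM and phenformin (PHEN) at 50 µM were each compared with water (W). All 5 groups had 3 replicates, grown in the same serum-containing medium. The series calls NP neopetasin, whereas the methods of the study name petasin at that dose, and the name on the labels is kept here. Metformin and phenformin are both biguanides, but their doses differed, so that their values are given side by side and are not compared.

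DMSO and NP lay on 2 slides and W, MET and PHEN on 2 other slides, so the solvent and the set of slides cannot be told apart, and MET and PHEN shared the W arrays. Between 25804 and 32056 of 58201 probes were well above background on the DMSO and NP arrays, and between 31408 and 45044 on the others. The highest counts were those of replicate 1 of W (45044) and of MET (44451). Replicate 1 of PHEN, on the same slide, had 34984, so pair 1 of PHEN against W joins arrays that differ in this count. Of 10 melanocyte lineage markers, 9 were above background on all 15 arrays, and TYR, the enzyme of melanin synthesis, on 13 of them. Of 7 markers of other cell types that had a probe, the epithelial EPCAM and KRT5 were above background on 0 arrays, CD3E on 11, and PTPRC, PECAM1, COL1A1 and DES on all 15. In bulk RNA, fewer cells of a type and less RNA per cell cannot be told apart.

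None of the 10 genes passed the test in NP, metformin or phenformin against its own vehicle. A gene was called when it changed by at least 1.5-fold with an adjusted p of at most 0.05 in limma, fitted over 26826 features with the replicate number as a block. In NP against DMSO 0 of 10 genes were called, and 0.0373% of all features were. In MET against W 0 of 10 were called, against 0% of all features, and in PHEN against W 0 of 10, against 0.0261%. At an unadjusted p of at most 0.05 the count was also 0 of 10 in each, where 4.69%, 2.46% and 2.35% of all features stood. The changes of the 10 genes ran from -0.12 to 0.23 on the log2 scale with NP, from -0.27 to 0.15 with metformin and from -0.22 to 0.19 with phenformin. The median size of a change was 0.07, 0.11 and 0.07 in the 3 comparisons, beside 0.11, 0.12 and 0.10 over all features.

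**Figure D1:**
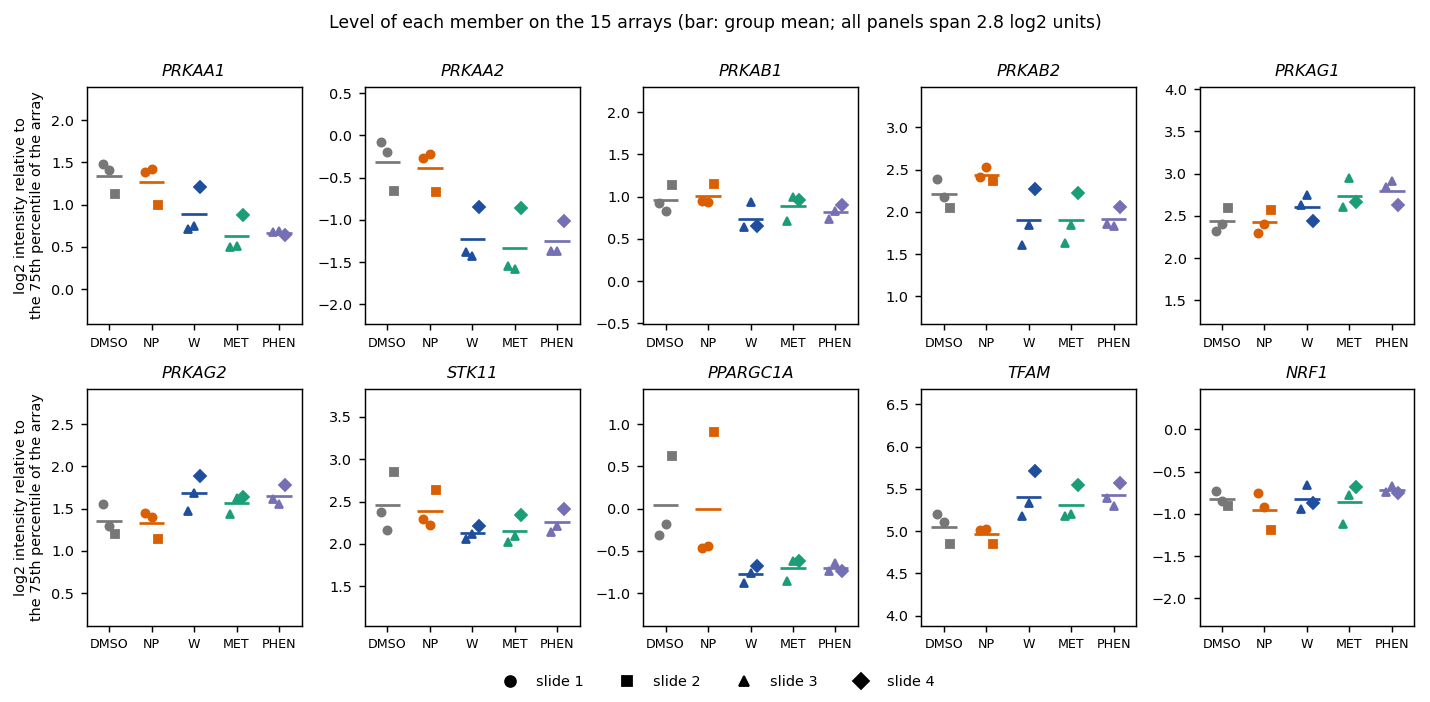
Level of each of the 10 genes on the 15 arrays, in log2 units above the 75th percentile of that array; points are arrays, bars are group means (n = 3) and symbols are slides. Treated points overlap with those of their vehicle for all genes except PRKAA1 in PHEN and W, and PRKAA2 sits between -0.67 and -0.08 in DMSO and NP and between -1.58 and -0.85 in W, MET and PHEN.

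A level is the log2 intensity of a probe above the 75th percentile of its own array, so that a negative level lies below that percentile, and levels of different probes cannot be set against each other. PRKAA1 encodes the alpha1 catalytic subunit. Its level was 1.48, 1.40 and 1.12 in DMSO (mean 1.34 ± 0.19, SD, n = 3) and 1.39, 1.42 and 1.00 in NP (1.27 ± 0.23). It was 0.71, 0.75 and 1.21 in W (0.89 ± 0.28), 0.49, 0.51 and 0.87 in MET (0.63 ± 0.21), and 0.68, 0.69 and 0.64 in PHEN (0.67 ± 0.02). NP and DMSO overlapped, as did MET and W, whereas all 3 PHEN values were below all 3 W values. That was so for 1 of the 10 genes and for 8.13% of all features in PHEN against W. The PHEN difference rested on replicate 3, where it was -0.57, against -0.03 and -0.06 in the others.

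The metformin difference of PRKAA1 was the largest in size among the 10 genes in any of the 3 comparisons, at -0.27 (SE 0.18, 95% interval -0.67 to 0.14), and it was negative in all 3 pairs (-0.22, -0.24 and -0.34). The limma p was 0.180 before and 1.00 after adjustment. When the block was numbered separately within each set of slides, the SE fell to 0.11 and the p to 0.0406, with an adjusted p of 0.52. The difference with NP was -0.07 (SE 0.18) and with phenformin -0.22 (SE 0.18), both with an adjusted limma p of 1.00. A 2nd probe of PRKAA1, assigned to the same RefSeq transcript (NM_206907), gave differences of 0.06, -0.01 and 0.04 (SE 0.15), so the lower metformin and phenformin values of the brighter probe were not seen in it.

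PRKAA2 encodes the other catalytic subunit, alpha2, known from muscle and heart. Its level was -0.08, -0.20 and -0.66 in DMSO and -0.27, -0.22 and -0.67 in NP. It was -1.38, -1.43 and -0.85 in W, -1.55, -1.58 and -0.86 in MET and -1.37, -1.36 and -1.01 in PHEN. The 3rd replicate stood apart from the others in every group, lower in DMSO and NP and higher in W, MET and PHEN, and it lay on a slide of its own in each set. The differences were -0.07, -0.11 and -0.03 with NP, metformin and phenformin (SE 0.25), with an adjusted limma p of 1.00 in each. With the block within each set of slides the SE was 0.08.

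The beta subunits hold the trimer together and bind glycogen. PRKAB1 (beta1) had levels of 0.93, 0.83 and 1.14 in DMSO, 0.95, 0.94 and 1.15 in NP, 0.64, 0.93 and 0.65 in W, 0.72, 0.99 and 0.95 in MET and 0.74, 0.83 and 0.90 in PHEN. It was higher in all 3 pairs with NP and with metformin, by 0.05 (SE 0.12) and 0.15 (SE 0.12), and the groups overlapped. With phenformin the difference was 0.08, positive in 2 of 3 pairs.

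PRKAB2 (beta2) had the largest difference of the 10 genes in NP against DMSO. Its level was 2.39, 2.18 and 2.05 in DMSO (2.21 ± 0.17) and 2.41, 2.54 and 2.36 in NP (2.43 ± 0.09), which overlapped by the lowest NP value and the highest DMSO value. The difference was 0.23 (SE 0.18, 95% interval -0.17 to 0.62, a 1.17-fold ratio), with pairs of 0.02, 0.36 and 0.31 and a limma p of 0.225 (adjusted p 1.00). With the block within each set of slides the interval was -0.01 to 0.47 and the p 0.0595 (adjusted p 0.46). PRKAB2 was at 1.61, 1.85 and 2.27 in W, at 1.63, 1.84 and 2.22 in MET and at 1.86, 1.83 and 2.06 in PHEN, so both biguanide groups lay within the range of water, with differences of -0.01 and 0.01.

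The gamma subunits bind AMP, ADP and ATP. PRKAG1 (gamma1) was at 2.33, 2.41 and 2.59 in DMSO and at 2.30, 2.40 and 2.57 in NP, pair by pair no more than 0.03 apart. It was at 2.64, 2.74 and 2.44 in W, 2.60, 2.94 and 2.66 in MET and 2.84, 2.92 and 2.63 in PHEN. With phenformin the 3 pairs were 0.21, 0.18 and 0.19, and the mean difference of 0.19 had a limma p of 0.179 (SE 0.13, adjusted p 1.00). With the block within each set of slides it was 0.0286 (SE 0.07, adjusted p 0.66). Higher values in all 3 pairs were found in 12.2% of all features in that comparison. The differences with NP and metformin were -0.02 and 0.13.

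PRKAG2 (gamma2), the subunit known for cardiac glycogen storage disease, was at 1.55, 1.30 and 1.19 in DMSO and at 1.45, 1.41 and 1.14 in NP. It was at 1.47, 1.68 and 1.89 in W, 1.44, 1.62 and 1.64 in MET and 1.61, 1.56 and 1.77 in PHEN. Each treated group overlapped with its vehicle, and the differences were -0.02, -0.11 and -0.03 (SE 0.15) with NP, metformin and phenformin.

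STK11, the tumor suppressor kinase that activates AMPK, was at 2.38, 2.16 and 2.84 in DMSO and at 2.29, 2.22 and 2.64 in NP. It was at 2.05, 2.11 and 2.22 in W, 2.02, 2.09 and 2.34 in MET and 2.14, 2.21 and 2.41 in PHEN. The differences were -0.08, 0.02 and 0.13 (SE 0.11). The phenformin values were higher than water in all 3 pairs but the groups overlapped, and the limma p was 0.276 (adjusted p 1.00).

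**Figure D2:**
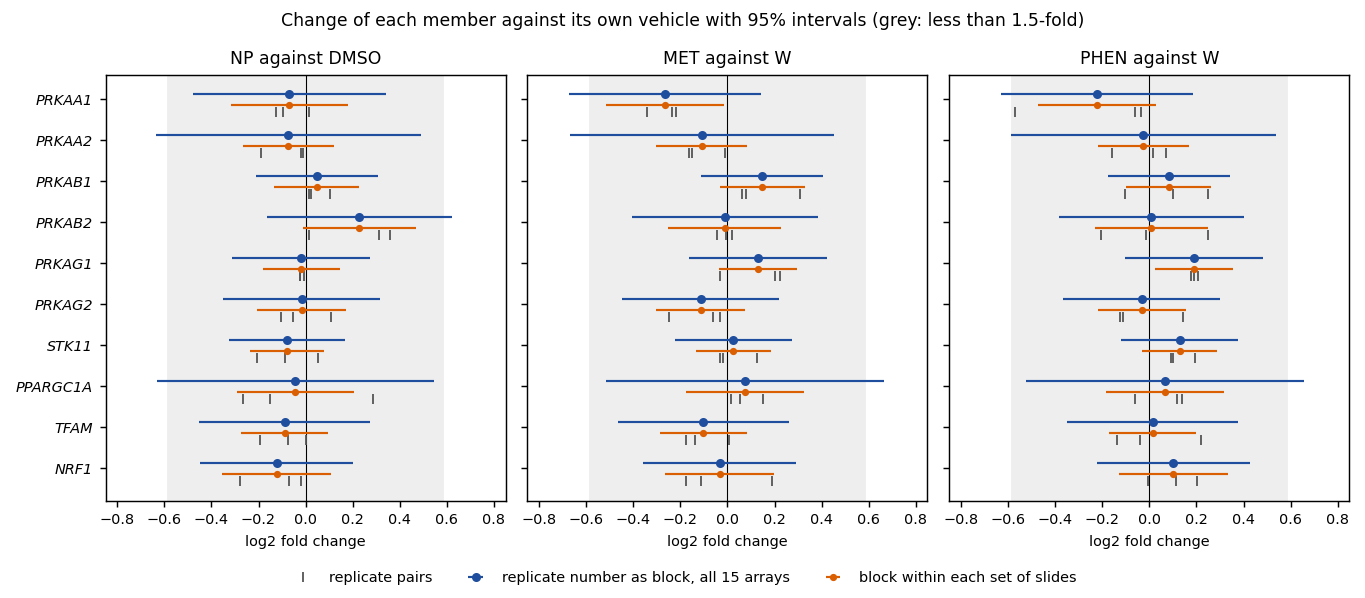
Log2 fold change of each gene against its own vehicle with 95% intervals, with the replicate number as a block over all 15 arrays (blue) or within each set of slides (orange); ticks are the 3 replicate pairs and the grey area is a change of less than 1.5-fold. All 30 estimates lie between -0.27 and 0.23, and all orange intervals stay inside the grey area.

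PPARGC1A encodes PGC-1α, the coactivator that AMPK phosphorylates and that drives mitochondrial genes. Its level was -0.31, -0.18 and 0.62 in DMSO and -0.46, -0.45 and 0.90 in NP. In both groups replicate 3 was the highest, and the pairs went in different directions, at -0.15, -0.26 and 0.29, with a mean difference of -0.04 (SE 0.27, 95% interval -0.63 to 0.55). It was at -0.88, -0.77 and -0.68 in W, -0.86, -0.62 and -0.62 in MET and -0.74, -0.65 and -0.74 in PHEN, a narrower spread. The differences with metformin and phenformin were both 0.07 (SE 0.27) and the groups overlapped with water.

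NRF1 is a transcription factor of nuclear genes for respiration and of TFAM. It was at -0.73, -0.85 and -0.91 in DMSO and at -0.75, -0.92 and -1.19 in NP, lower in all 3 pairs by a mean of 0.12 on the log2 scale (log2 change -0.12, SE 0.15, adjusted limma p 1.00). Values lower in all 3 pairs were found in 18.9% of all features in NP against DMSO. It was at -0.94, -0.66 and -0.87 in W, -1.12, -0.77 and -0.68 in MET and -0.74, -0.67 and -0.76 in PHEN, with differences of -0.03 and 0.10.

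TFAM packages mitochondrial DNA and starts its transcription. The promoter window of TFAM is shown because NRF1, also among the 10 genes, is known to act on it. In RefSeq on GRCh38.p14 it spans 300 bases at chr10:58385160-58385459 on the plus strand, from 250 bases before the start of the transcript to 50 after it. The capitals mark its only match to the core of the NRF1 motif, GCGC repeated after 2 free bases, which reads the same on both strands. The match starts 63 bases upstream of the transcript. The free bases were allowed after the window had been read.
TFAM: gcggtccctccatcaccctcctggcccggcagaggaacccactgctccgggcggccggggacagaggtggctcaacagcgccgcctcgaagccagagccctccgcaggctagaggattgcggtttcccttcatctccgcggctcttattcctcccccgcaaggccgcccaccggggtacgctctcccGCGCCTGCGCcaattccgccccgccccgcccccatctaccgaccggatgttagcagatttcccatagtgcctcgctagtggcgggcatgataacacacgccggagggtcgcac
That motif was in 2921 of 35116 such windows (8.32%). The 9 of the 10 genes with a window had 14 windows, and the motif was found for PPARGC1A and TFAM. That count is by gene and the share is by window, so they cannot be set against each other. The TFAM match was in view when the motif was set, so it is a description.

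The brighter of the TFAM probes (NM_001270782) was at 5.21, 5.10 and 4.85 in DMSO and at 5.01, 5.03 and 4.85 in NP. It was at 5.17, 5.34 and 5.71 in W, 5.18, 5.20 and 5.54 in MET and 5.39, 5.30 and 5.57 in PHEN. All treated groups overlapped with their vehicle, and the differences were -0.09, -0.10 and 0.01 (SE 0.16). The other probe (NM_003201) gave differences of 0.08, -0.28 and -0.28 (SE 0.35), of which those with both biguanides were negative in all 3 pairs and none was called (adjusted limma p 1.00 in each).

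The 2 probes of PRKAA1 ran against each other over the 15 arrays, with a Pearson r of -0.90, of -0.82 within the DMSO and NP arrays and of -0.60 within the W, MET and PHEN arrays. The other probe was at -0.56, -0.81 and -0.43 in DMSO, -0.73, -0.61 and -0.28 in NP, 0.07, 0.13 and -0.02 in W, 0.14, 0.11 and -0.09 in MET and 0.15, 0.15 and -0.01 in PHEN. It was lower on every DMSO and NP array than on any W, MET or PHEN array, the opposite of the group means of the brighter probe. For TFAM, r was -0.30 over all arrays, 0.86 within the DMSO and NP arrays and 0.31 within the others. Arrays of 1 slide share their hybridization, so these values are a description.

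The precision of the test depended on how the replicates were blocked. With the replicate number shared by all 15 arrays, 7 of 10 genes in each comparison had a 95% interval inside a 1.5-fold change in either direction. The exceptions were PRKAA2 and PPARGC1A in all of them, with PRKAB2 for NP and PRKAA1 for the biguanides. With the block numbered within each set of slides, all 10 did in each comparison, and a ratio to the vehicle lay within 0.782 and 1.38 with NP, 0.700 and 1.26 with metformin and 0.720 and 1.28 with phenformin.

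In the direction of the pairs, 2 of the 10 genes were higher and 3 lower in all 3 pairs with NP, where 14.3% of all features were higher and 18.9% lower. With metformin 2 were higher and 3 lower, beside 22.3% and 20.3% of all features. With phenformin 2 were higher and 1 lower, beside 12.2% and 14.8%. The genes higher with NP were PRKAB1 and PRKAB2, and those lower were PRKAA2, PRKAG1 and NRF1. PRKAA1, PRKAA2 and PRKAG2 were lower with metformin, and PRKAB1 and PPARGC1A were higher. PRKAG1 and STK11 were higher with phenformin, and PRKAA1 was lower. Groups did not overlap in 0 genes with NP or metformin, beside 6.44% and 5.76% of all features.

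The change with NP was also set against that with each biguanide at these doses, as a difference of the changes from the own vehicle. None of the 10 genes passed the test against metformin or phenformin, where 0% of all features did. The largest difference against metformin was that of PRKAB2 (0.24, 95% interval -0.32 to 0.80) and against phenformin that of NRF1 (-0.23, 95% interval -0.68 to 0.23), both with an adjusted limma p of 1.00. PRKAG1 was lower in all 3 pairs with NP and higher in all 3 with phenformin, and the difference of these changes was -0.21 (95% interval -0.62 to 0.21, adjusted limma p 1.00). These intervals leave room for a difference of more than 1.5-fold in 4 of 10 genes against metformin and in 7 of 10 against phenformin.

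For the 10 genes, the largest differences between DMSO and W exceeded the largest between a treatment and its vehicle. Slides of the same set differed too. The mean level of PPARGC1A was -0.35 on slide 1 and 0.76 on slide 2, which both hold DMSO and NP arrays. In DMSO against W, 1 of the 10 genes was called, and 10.6% of all features were. That gene was PRKAA2, 0.91 higher in DMSO on the log2 scale (SE 0.25, 1.88-fold, adjusted limma p 0.0363), and the groups did not overlap. The pairs were 1.30 and 1.23 between slides 1 and 3 and 0.18 between slides 2 and 4. Without replicate 1 or without replicate 2 no gene of the 10 was called, and without replicate 3 there were 2. Of all features, 0 were called without replicate 1 and 0 without replicate 2, and up to 5058 with 1 replicate left out. PPARGC1A was 0.81 higher in DMSO without overlap (SE 0.27, adjusted limma p 0.060), and 29.6% of all features did not overlap.

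The methods of the study set the biguanides against DMSO. On that comparison, which crosses the sets of slides, 2 of the 10 genes were called with metformin (17% of all features) and 2 with phenformin (10.3%). On its brighter probe PRKAA1 was lower by log2 changes of -0.71 (adjusted limma p 0.0200) and -0.67 (0.0334). On its other probe the direction was the opposite, 0.65 and 0.70 higher than DMSO (SE 0.15, adjusted limma p 0.0105 and 0.0107 in the fit of single probes, a comparison chosen after seeing the data). PRKAA2, with 1 probe, was lower by log2 changes of -1.02 (adjusted limma p 0.0168) and -0.93 (0.0313), with metformin and phenformin. Neither gene was called against water.

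The rest of the 10 genes overlapped between DMSO and W on the probe reported. PRKAA1 was 0.44 higher in DMSO on the brighter probe (adjusted limma p 0.121) and 0.66 lower on the other one (log2 change -0.66, SE 0.15, adjusted limma p 0.0147 in the fit of single probes), so the direction for PRKAA1 depended on the probe. TFAM was likewise lower in DMSO on the brighter probe (-0.36, adjusted limma p 0.156) and higher on the other (0.68, adjusted limma p 0.199). STK11 was 0.34 higher (adjusted limma p 0.064), and PRKAG2 was lower by a log2 change of -0.33 (adjusted limma p 0.149).

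Ordered by mean level on the probe reported, PRKAA1, PRKAA2, STK11 and PPARGC1A were highest in DMSO, and PRKAB1 and PRKAB2 in NP. PRKAG1, TFAM and NRF1 were highest in PHEN, and PRKAG2 in W. The mean levels of the 5 groups spanned 1.02 for PRKAA2, 0.81 for PPARGC1A and 0.71 for PRKAA1, and 0.23 for NRF1. Neighbours in the order overlapped except NP and W for PRKAA2 and NP and MET for PPARGC1A, which are of different sets of slides, and W and PHEN for PRKAA1. The order depended on the probe for PRKAA1 and TFAM. On the other probe, PRKAA1 was highest in PHEN (0.10) and lowest in DMSO (-0.60), and TFAM was highest in NP (0.59).

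The genes most like PRKAA1 and PRKAB2 were looked up because these 2 had the largest differences. Over the 15 arrays and among 13943 named genes, the brighter probe of PRKAA1 ran closest to MAP3K1 (r = 0.99), KPNB1 (r = 0.98) and HIPK1 (r = 0.98). The other probe of PRKAA1 ran against the brighter one (r = -0.90), so this likeness holds for the brighter probe only. PRKAB2 ran closest to S100PBP (r = 0.97), SNX24 (r = 0.96) and CORO2A (r = 0.96). The arrays fall into 4 slides and 2 vehicles, which these correlations share.

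Other genes of the pathway were taken from 5 lists, and 0 genes of them were called against the own vehicle. The list of AMPK regulators held kinases and phosphatases that act on AMPK, partners of STK11 and a further AMPK subunit. Among them 0 of 11 genes passed the test with NP, metformin or phenformin. Their median changes were -0.06, 0.05 and 0.05, beside -0.01, 0.00 and -0.03 over all features. The largest change in 1 direction in all 3 NP pairs was that of CAMKK1, a calcium-dependent kinase, whose mean level was -0.72 ± 0.28 in DMSO and -1.13 ± 0.11 in NP. The log2 change was -0.41 (SE 0.13), with a limma p of 0.011 and an adjusted p of 0.87. PPM1E, a phosphatase, had a change of -0.73 whose pairs were 0.55, -2.98 and 0.24, so that it rested on replicate 2. PRKAG3, the gamma3 subunit, was 0.41 higher with metformin (SE 0.48), and CAMKK2, the kinase that activates AMPK on calcium, 0.15 higher with phenformin (SE 0.11).

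Among the AMPK substrates 0 of 18 genes were called in each comparison, with medians of -0.04, -0.01 and 0.01. The kinase ULK1, which starts autophagy, was 0.23 higher in NP (SE 0.23). HDAC5, a histone deacetylase, was 0.27 higher with metformin (SE 0.12), and ACACB, the mitochondrial acetyl-CoA carboxylase, was lower with phenformin (-0.19, SE 0.16). Of the 13 AMPK-related kinases, which apart from the relative MELK are also activated by STK11, 0 were called in each, with medians of -0.04, 0.03 and 0.06. The leading values were SNRK with NP (-0.23, SE 0.21), SIK1 with metformin (0.17, SE 0.17) and BRSK2 with phenformin (0.23, SE 0.09).

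Of the 16 genes of the PGC-1 family and its partners, 14 were tested and 0 were called in each comparison, with medians of 0.03, -0.07 and -0.06. ESRRB and ESRRG did not pass the filter on dim probes. SIRT1, the deacetylase of PGC-1α, was 0.20 higher with NP and 0.13 higher with phenformin (SE 0.13), in all 3 pairs of each. The same direction in all pairs was required for a gene to be named. GABPA, a subunit of the respiratory transcription factor NRF2, was lower with metformin (-0.30, SE 0.19). Of the 15 genes of mitochondrial DNA transcription and replication, 0 were called, with medians of -0.01, -0.07 and -0.01.

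LONP1, the mitochondrial protease that degrades TFAM, was higher than the vehicle in all 3 pairs of all 3 treatments. Its mean level was 3.12 ± 0.10 in DMSO and 3.29 ± 0.14 in NP, a difference of 0.17 (SE 0.10). It was 3.62 ± 0.10 in W, 3.97 ± 0.04 in MET and 3.94 ± 0.05 in PHEN, differences of 0.34 and 0.32 (SE 0.10), and the adjusted limma p was 1.00 in each of these. The metformin and phenformin values share the water arrays. Of all features, 14.3% were higher in all 3 pairs with NP, 22.3% with metformin and 12.2% with phenformin. The share that was higher in all 3 treatments was not computed. The rule that named LONP1 with NP and with phenformin required the same direction in all 3 pairs. Its metformin values were added after they were seen. PRIMPOL, which restarts stalled mitochondrial replication, was lower with metformin (-0.36, SE 0.15, adjusted limma p 1.00).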

How the data were processed

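RNA of 15 A2058 samples was hybridized by the authors to single-dye Agilent SurePrint G3 Human GE arrays. The deposited intensities are spot signals from which Feature Extraction (9.1 per the labels, 10.7.3.1 per the file headers, probes designed on hg19) had removed background; they were not normalized between arrays. The authors also deposited a log2 table normalized at the 75th percentile, with 31.3% to 50.8% of values of an array at its floor, used as an alternative.

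Control spots were left out, outlier spots set to missing (225 of 402390 values tested), spots of a probe averaged, and the log2 75th percentile of each array subtracted. Of 58201 probes, 32914 were kept, namely probes that every array of some group showed well above background, and the brightest probe stood for a gene, giving 26826 features. Of 33080 probes with a RefSeq accession, 31100 matched 1 symbol in the RefSeq table. limma 3.58.1 in R 4.3.3 was fitted with 5 groups and the replicate number as a block, after the paired test of the methods, with Benjamini-Hochberg adjustment; scripts were tested on simulated data. Deviations from the group means correlated between same-numbered arrays at r from 0.306 to 0.645 for NP and DMSO, 0.442 to 0.855 for MET and W, and 0.242 to 0.397 for PHEN and W, and between arrays of other numbers at -0.452 to 0.289, -0.783 to 0.130 and -0.308 to 0.0469. For NP and DMSO the crossed replicates 1 and 2, which share a slide, reached 0.289 and 0.242, so that there the number and the slide are hardly told apart. The labels give no separate cultures beyond replicate numbers, and the methods state 3 biological replicates. The number of arrays limits the precision.

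Named genes were all 10 members, every called gene of a list, the gene of each list and comparison with the largest change in 1 direction in all 3 pairs, and the 3 genes most like each of the 2 members with the largest changes; PPM1E was named after its values were seen, and so was LONP1 with metformin. The members and lists were chosen with earlier results of these data known. Python 3.11.15, pandas 2.3.3, numpy 2.4.6 and matplotlib 3.10.9 were used.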

Additional observations from a re-analysis of the deposited data

How the results depend on the processing

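Against the own vehicle, 0 of the 10 genes were called in NP, MET or PHEN under every setting tried, and 0 genes of the 5 lists, apart from the biguanides set against DMSO. That comparison, which crosses the sets of slides, gave 2 of the 10 genes with metformin and 2 with phenformin. It gave 4 and 2 of 18 AMPK substrates and 6 and 4 of 14 tested genes of the PGC-1 family. Of 15 genes of mitochondrial DNA transcription and replication it gave 2 and 1. Of all features, 4568 (17%) and 2761 (10.3%) were called. Intervals lay within 1.5-fold in 4 and 3 of the 10. The cause of changes named here was not tested.

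Of all features, 10 (NP), 0 (MET) and 7 (PHEN) were called. Without the replicate block the counts were 3 with NP and 0 with PHEN. With a slide term they were 63, 2 and 16, and with the replicate block within each set of slides 52 with NP and 2 with MET. With the replicate block but only the groups compared they were 0 with NP, 0 with PHEN and 0 in DMSO against W. With normexp they were 27 with NP, 2 with MET and 1203 in DMSO against W, with quantile normalization 17 with NP, without a filter 0 with NP and 0 with PHEN, and for probes above background on all 15 arrays 25 with NP and 1636 in DMSO against W. The methods' t-test at an unadjusted p of at most 0.05 and at least 1.5-fold gave 214, 124, 168 and, in DMSO against W, 1462. It gave 299 and 248 for NP against each biguanide. Among the 10 genes PRKAA1 with metformin and PRKAG1 with phenformin passed that p, but not 1.5-fold. Whatever the fold, 3139 of 26826 features passed that p with MET and 1399 with PHEN. After adjustment the t-test gave 0 with NP, 0 with PHEN and 3 in DMSO against W.

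In DMSO against W (1 of 10 genes, 2842 features) the number of the 10 called was 0 with only the groups compared, without a filter and by the methods' t-test with either p, and 2 with normexp and on all-15-array probes. With 1 replicate left out it ranged from 0 to 2 and the features from 0 to 5058; the features were 0 to 0 with NP, where 703 to 1525 had an unadjusted p of at most 0.05 in limma, and 0 to 0 with PHEN (379 to 1310). Intervals within 1.5-fold ranged from 3 to 10 with NP, 4 to 10 with MET and 2 to 10 with PHEN. DMSO against W could not be fitted with a slide term, which holds the same contrast, and it was not fitted with a block within each set.

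No change called in the main fit was reversed. Set against DMSO, the biguanides were called lower on the brighter probe of PRKAA1 and called higher on its other probe. Normexp turned PRKAG2 with NP to 0.039, PRKAA2, STK11 and NRF1 with metformin to 0.0095, -0.015 and 0.012, PRKAA2, PRKAB2 and TFAM with phenformin to 0.060, -0.019 and -0.00025, and NRF1 between the vehicles to 0.011. Quantile normalization turned PRKAB2 with metformin to 0.00052, PRKAA2 with phenformin to 0.037 and NRF1 between the vehicles to 0.044. The mean of the probes turned TFAM with phenformin to -0.13, and PRKAA1 and TFAM between the vehicles to -0.11 and 0.16.

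With replicates left out, the changes that turned ranged, with NP, from -0.024 to 0.048 for PRKAG1, -0.079 to 0.027 for PRKAG2 and -0.21 to 0.17 for PPARGC1A. With metformin they ranged from -0.026 to 0.0064 for PRKAB2, -0.026 to 0.053 for STK11 and -0.14 to 0.039 for NRF1. With phenformin they ranged from -0.073 to 0.042 for PRKAA2, -0.11 to 0.12 for PRKAB2, -0.12 to 0.014 for PRKAG2 and -0.089 to 0.090 for TFAM, and between the vehicles from -0.11 to 0.089 for NRF1. Set against DMSO, metformin turned PRKAB1 to -0.076, PRKAG2 to 0.22, STK11 to -0.31, PPARGC1A to -0.74 and TFAM to 0.25, and phenformin turned PRKAB1 to -0.14, PRKAB2 to -0.29, PRKAG2 to 0.30, STK11 to -0.21 and PPARGC1A to -0.75. On the other probe of PRKAA1, an alternative chosen after seeing the data, they turned PRKAA1 to 0.65 and 0.70.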
